A study of Mus musculus with 6 samples.

Results

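The nuclear genes that copy, package and transcribe mitochondrial DNA (mtDNA) were examined in quadriceps muscle 3 weeks post–*Dnm1l* deletion. The group was chosen by gene symbol and holds 10 genes, *Polg*, *Polg2*, *Twnk*, *Ssbp1*, *Mgme1*, *Tk2*, *Tfam*, *Polrmt*, *Tfb2m* and *Tfb1m*, of the 27179 genes listed in the count files. All 10 passed the filter on low counts that left 16483 genes for the test. RNA-seq was performed on 3 control mice, replicates B, C, D, and 3 miDrp1KO mice, replicates A, E, F, and the comparison asks whether loss of the fission protein Drp1, which *Dnm1l* encodes, goes with a change in these transcripts.

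Control mice are labelled f/f for floxed *Dnm1l* (the study's methods also name flox/+ mice as controls), and miDrp1KO mice carry floxed *Dnm1l* with HSA-MerCreMer, a tamoxifen-inducible Cre recombinase driven by the human skeletal actin (*ACTA1*) promoter. By the study's methods, the floxed line was backcrossed to C57BL/6J, and mice of both groups were injected with tamoxifen at 3 months of age (50 mg/kg daily over 4 days). The labels give normal chow for all 6 mice. The promoter restricts the deletion to muscle fibres, so RNA from other cells of the quadriceps still carries intact *Dnm1l*, and in such bulk tissue fewer cells of a type and less RNA per cell cannot be told apart. The labels name the libraries only as replicates, so the p-values measure the spread between these 6 libraries, part of which may be technical.

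mtDNA is a small circular genome, present in many copies per cell, that is wrapped into nucleoids inside the mitochondrial matrix. It is copied by a dedicated set of nuclear-encoded proteins: the helicase Twinkle unwinds it, the polymerase gamma holoenzyme synthesises the new strand, a single-strand binding protein protects the opened template, and an exonuclease trims the ends. A single-subunit RNA polymerase, helped by TFAM and TFB2M, transcribes it, and in skeletal muscle, which depends heavily on oxidative metabolism, inherited defects of several of these genes cause myopathy with mtDNA depletion or deletions.

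Promoter letters shared by members are shown because the nuclear respiratory factors NRF1 and GABP (NRF2) are textbook regulators of this gene group. Promoter windows of 300 bases (250 before to 50 after the start site, RefSeq, GRCm38.p6) were matched for all 10 genes, with 2 windows for *Twnk*. The GABP letters CCGGAAG were found, on either strand, in the windows of 7 of the 10 genes (70.0%), against 9.93% of the 27025 genes with a window of this length, and in 7 of the 11 windows against 8.86% of 32851. The stretches below give bases -70 to 20 around the start site (-130 to -41 for the second start site of *Twnk*), 5′ to 3′ on the gene's strand, with the GABP letters or their reverse complement in capitals. In *Polrmt* the capitals next to the start site mark 2 overlapping matches to the NRF1 letters on the reverse strand.
*Polg*, chr7:79466254-79466343, reverse strand: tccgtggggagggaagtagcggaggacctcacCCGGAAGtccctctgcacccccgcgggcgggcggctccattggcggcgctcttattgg
*Polg2*, chr11:106779518-106779607, reverse strand: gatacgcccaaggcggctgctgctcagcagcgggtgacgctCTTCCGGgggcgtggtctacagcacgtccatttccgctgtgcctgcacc
*Twnk*, chr19:45006428-45006517, forward strand: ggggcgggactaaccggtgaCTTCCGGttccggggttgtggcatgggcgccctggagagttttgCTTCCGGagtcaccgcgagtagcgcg
*Ssbp1*, chr6:40471398-40471487, forward strand: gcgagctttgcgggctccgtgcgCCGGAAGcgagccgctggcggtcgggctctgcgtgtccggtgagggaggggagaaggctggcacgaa
*Tk2*, chr8:104248539-104248628, reverse strand: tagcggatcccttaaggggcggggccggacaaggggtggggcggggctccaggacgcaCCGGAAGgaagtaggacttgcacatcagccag
*Tfam*, chr10:71238025-71238114, reverse strand: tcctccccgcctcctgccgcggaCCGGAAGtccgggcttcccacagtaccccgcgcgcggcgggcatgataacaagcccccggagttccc
*Polrmt*, chr10:79746562-79746651, reverse strand: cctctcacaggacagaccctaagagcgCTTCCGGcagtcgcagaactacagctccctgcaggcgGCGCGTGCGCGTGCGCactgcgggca

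Counted from the start site, the GABP letters began at base -12 in *Tk2*, -29 in *Polg2*, -38 in *Polg*, -43 in *Polrmt* and -47 in both *Ssbp1* and *Tfam*. In *Twnk* they began at bases -110 and -66 from its second start site, and its first window held none. The printed *Twnk* stretch overlaps the end of the opposite-strand gene *Mrpl43* (chr19:45004829-45006442), so these letters also lie next to the start of that gene. The NRF1 letters, GCGCA and GCGC with any 1 base between them, were found in *Polrmt* alone among the members (4.60% of all windows), the YY1 letters AAGATGGC in *Mgme1* alone (2.75% of all windows) and CCAAT in *Polg* and *Twnk* (37.4% of all windows), each searched on both strands. The CCAAT and GABP letters do not overlap in any member. The windows of *Tfb1m* and *Tfb2m* held none of these letters. A match describes the sequence and is not a measured binding site. Only exact letters were searched, so a window without a match may still hold a similar sequence.

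Control libraries held 13989588 to 62042255 counts and miDrp1KO libraries 20028624 to 28829756. Levels are given as counts per 1000000 counts (CPM), on library sizes scaled by TMM. *Dnm1l* was at 156, 114 and 140 CPM in control (B, C, D) and at 70.6, 81.3 and 66.2 CPM in miDrp1KO (A, E, F), and the groups did not overlap (log2 fold change -0.91 ± 0.18 SE, edgeR adjusted p = 0.362; DESeq2 adjusted p = 0.00302 with independent filtering and 0.00903 without). The libraries also differed in other measures. Ribosomal RNA took 15.6%, 7.95% and 3.36% of the counts in control B, C and D and 23.0%, 1.48% and 24.4% in miDrp1KO A, E and F. Replicates A and F of miDrp1KO were thus above every control library. The mean log2 CPM of 8 slow fibre genes was 5.81, 6.56 and 6.48 in control B, miDrp1KO E and miDrp1KO F and ran from 1.94 to 3.31 in the other 3 libraries. The 13 protein-coding genes of mtDNA itself are each listed at 0 counts in every library, so these files give no level for the transcripts that the members make.

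*Polg*, the catalytic subunit of the mtDNA polymerase (chr7:79446231-79466362, GRCm38, reverse strand, 23 exons in its longest transcript), was the only member whose groups did not overlap. It was at 22.6, 21.4 and 21.7 CPM in control B, C and D (21.9 ± 0.633, SD, n = 3) and at 18.0, 14.7 and 13.9 CPM in miDrp1KO A, E and F (15.5 ± 2.17, SD, n = 3). Every miDrp1KO library was below every control library. The log2 fold change was -0.50 ± 0.16 SE (95% interval -0.85 to -0.15), and the difference did not pass the threshold of 0.05 over all genes tested (edgeR adjusted p = 0.382). Taken alone, *Polg* had an unadjusted p of 0.00981 by edgeR and of 0.1 by the exact permutation test, two-sided, which cannot give a smaller value with 3 mice against 3. The study, which names this gene *Polg1*, reports a several-fold higher transcript level in miDrp1KO quadriceps at 3 weeks, the direction opposite to these counts. That level was measured by quantitative PCR, in more mice than the 3 per group here. The listed *Polg1* primers lie in exons 2 and 3 and matched 4 of the 18 annotated *Polg* transcripts, whereas the counts cover the whole gene. The reason for the difference was not tested.

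*Polg2* (chr11:106768253-106779537), the accessory subunit that holds the polymerase on its template, was the least abundant member, with 26 to 101 counts per library. Its levels were 2.18, 2.55 and 1.68 CPM in control B, C, D and at 1.65, 1.72 and 1.25 CPM in miDrp1KO A, E and F. Control D lay within the range of the miDrp1KO libraries, and the log2 fold change of -0.44 had an interval from -1.13 to 0.25 (edgeR adjusted p = 0.629). The interval corresponds to folds of 0.457 to 1.19, the widest of the members in log2 units.

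*Twnk* (chr19:45005663-45012762, 5 exons), which encodes the helicase Twinkle, had the largest difference of the members in the main fit. It was at 26.0, 17.0 and 19.4 CPM in control B, C and D (20.8 ± 4.67, SD, n = 3) and at 18.2, 12.5 and 9.65 CPM in miDrp1KO A, E and F (13.4 ± 4.35, SD, n = 3). Replicates E and F were below all control libraries, while A lay between control C and D. The log2 fold change was -0.63 ± 0.25 SE (interval -1.17 to -0.09), with an adjusted p of 0.409 by edgeR and an unadjusted p of 0.0265 (0.2 by the exact permutation test). The estimate depended on single libraries: it was -0.42 without control B (adjusted p = 0.620), -0.43 without miDrp1KO F (adjusted p = 0.677), -0.59 without miDrp1KO E (adjusted p = 0.703) and -0.88 without miDrp1KO A (adjusted p = 0.107), all by edgeR. In the first 3 of these fits its unadjusted p was no longer under 0.05.

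*Ssbp1* (chr6:40471352-40484700) encodes the protein that coats single-stranded mtDNA at the replication fork. Its levels were 28.3, 23.1 and 31.5 CPM in control B, C, D and at 27.7, 33.3 and 24.1 CPM in miDrp1KO A, E and F. The groups interleaved, and the log2 fold change was 0.03 ± 0.18 SE with an interval from -0.36 to 0.43 (edgeR adjusted p = 0.962). *Mgme1* (chr2:144270663-144281227), the exonuclease that processes the ends of newly copied strands, was at 16.1, 15.4 and 14.6 CPM in control and at 12.4, 13.2 and 16.5 CPM in miDrp1KO A, E and F. Replicate F of miDrp1KO was the highest of all libraries and A the lowest, and the interval of the log2 fold change of -0.13 ran from -0.50 to 0.24 (edgeR adjusted p = 0.805).

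*Tk2* (chr8:104226685-104248558) encodes the mitochondrial thymidine kinase that salvages pyrimidine nucleosides for mtDNA synthesis in cells that no longer divide. It was at 6.20, 7.58 and 6.35 CPM in control B, C, D and at 6.61, 7.11 and 7.77 CPM in miDrp1KO A, E and F. The ranges overlapped over most of their width, and the log2 fold change of 0.10 had an interval from -0.31 to 0.51 (edgeR adjusted p = 0.878).

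*Tfam* (chr10:71225464-71238280), the protein that packages mtDNA into nucleoids and bends the promoters for transcription, varied least of all members. It was at 43.1, 43.7 and 41.6 CPM in control B, C and D (42.8 ± 1.09, SD, n = 3) and at 44.7, 40.8 and 43.2 CPM in miDrp1KO A, E and F (42.9 ± 1.95, SD, n = 3). Its highest and lowest libraries, both miDrp1KO, were 1.09-fold apart, whereas those of *Twnk* were 2.69-fold apart. The log2 fold change was 0.00 ± 0.14 SE, and its interval from -0.31 to 0.32 corresponds to folds of 0.806 to 1.25 (edgeR adjusted p = 0.995).

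*Polrmt* (chr10:79736123-79746581), the RNA polymerase of mitochondria, was at 13.3, 10.1 and 11.5 CPM in control B, C, D and at 10.4, 7.70 and 8.69 CPM in miDrp1KO A, E and F. Replicates E and F were below all control libraries and A was above control C. The log2 fold change of -0.39 ± 0.19 SE had an interval from -0.80 to 0.03 (edgeR adjusted p = 0.487). *Tfb2m* (chr1:179528055-179546267), the factor that opens the promoter for this polymerase, was at 35.2, 27.3 and 33.2 CPM in control and at 25.7, 29.3 and 29.6 CPM in miDrp1KO, with control C among the miDrp1KO libraries (log2 fold change -0.18, interval -0.53 to 0.17, edgeR adjusted p = 0.709).

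*Tfb1m* (chr17:3519256-3557781) is related to *Tfb2m* but acts mainly as a methyltransferase of mitochondrial ribosomal RNA. It was at 11.9, 9.84 and 8.81 CPM in control B, C, D and at 11.4, 9.49 and 13.8 CPM in miDrp1KO A, E and F. The highest library was miDrp1KO F and the lowest control D, and the log2 fold change of 0.19 had an interval from -0.25 to 0.62 (edgeR adjusted p = 0.768).

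**Figure D1:**
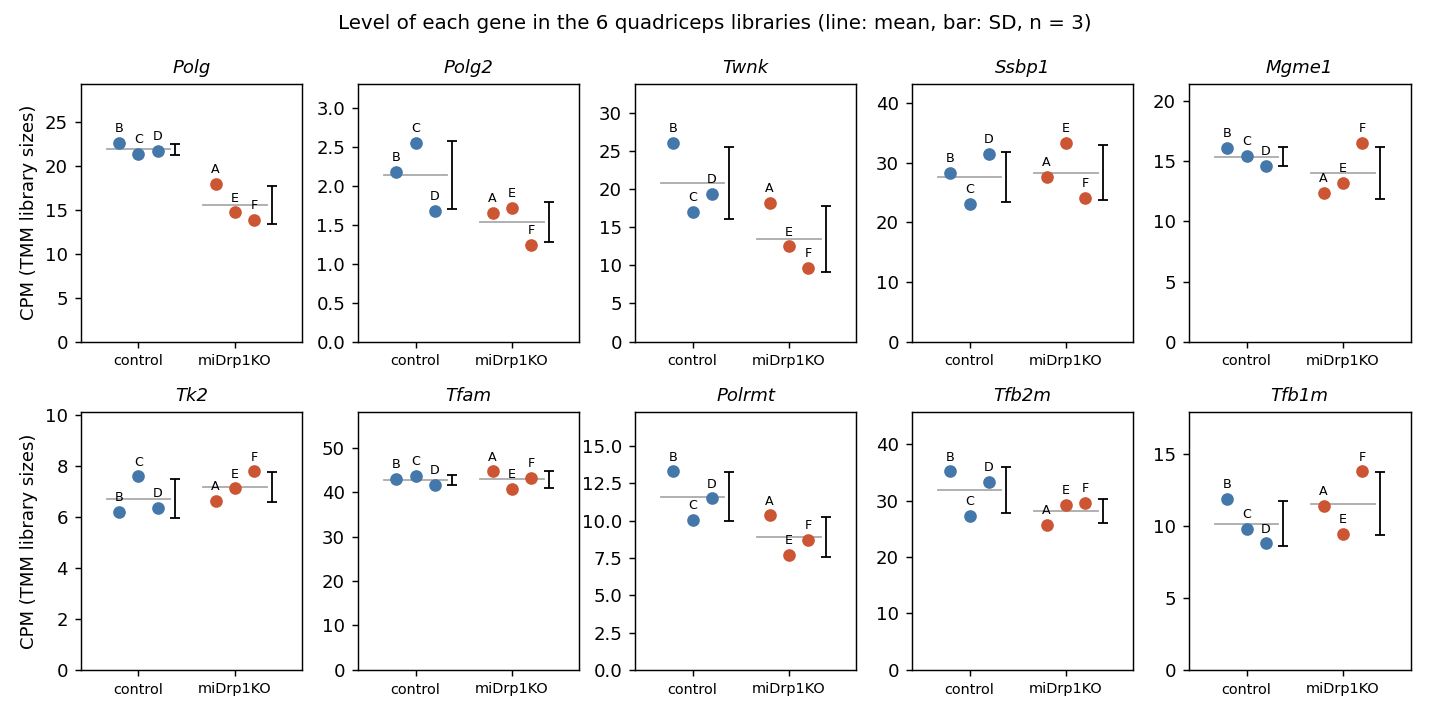
CPM on TMM library sizes (vertical axes from 0, one scale per gene) of each of the 10 genes in the 3 control (B, C, D) and 3 miDrp1KO (A, E, F) libraries; horizontal lines are group means and bars the SD (n = 3). The groups are apart in *Polg*, where the lowest control library is at 21.4 and the highest miDrp1KO library at 18.0 CPM, and overlap in the other 9 genes.

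Counted together, 0 of the 10 members had an adjusted p under 0.05 in either direction by edgeR, where 2 of the 16483 genes tested (0.0121%) did. Those 2 genes, named after their values were seen, were *Esr1* (log2 fold change 3.87) and *Unc5a* (-3.01). Whether the counts of *Esr1* include reads of the MerCreMer transgene was not tested, so its value is not read as a change of the mouse gene. DESeq2 with independent filtering gave an adjusted p to 3 members (*Tfam*, *Tfb2m* and *Ssbp1*), none under 0.05, and called 113 of 4431 genes (2.55%). Without that filtering, where it called 32 of 26450 genes (0.121%), it gave one to all 10 members, none under 0.05, with 0.502 for *Polg* and 0.522 for *Twnk*. At an unadjusted p under 0.05 the edgeR count was 2 members of 10, *Polg* and *Twnk*, both lower in miDrp1KO, against 10.9% of all genes in either direction and 6.22% lower.

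The groups did not overlap in 1 member (*Polg*, lower), against 18.0% of all genes tested in either direction and 10.3% lower, so the share of members was near that of all genes in the main fit. Without control C the groups did not overlap in 6 of the 10 members, against 30% of all genes in that fit. Estimates were above 0 in 4 members and below 0 in 6, and 52.0% of all genes were above 0. The median log2 fold change was -0.16 over the members and 0.02 over all genes. The summed level of the 10 members was 205, 178 and 190 CPM in control B, C, D and at 177, 170 and 168 CPM in miDrp1KO A, E and F.

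Under the 18 other settings of the fit, the estimates of *Polg*, *Polg2*, *Twnk*, *Polrmt*, *Tfb2m* and *Mgme1* stayed below 0 and those of *Tfb1m* and *Tk2* above 0 in all 18, while *Tfam* and *Ssbp1*, both near 0, changed sign in some. Single libraries moved the sizes: *Tfb1m* was at 0.06 without miDrp1KO F and 0.33 without control B, *Tfb2m* at -0.09 without control B and -0.30 without control C, and *Mgme1* at -0.03 without miDrp1KO A and -0.24 without miDrp1KO F. *Tfb1m* was smallest, at 0.02, with ribosomal RNA share as a covariate, and was at 0.09 with the length and GC correction. *Polg2* was at -0.30 without miDrp1KO F and *Polrmt* at -0.26 without control B, and *Tk2* ran from 0.06 without miDrp1KO F to 0.18 without miDrp1KO A. The estimate of *Polg* ran from -0.59 to -0.40 with an unadjusted p under 0.05 in all 18 and an adjusted p of 0.128 to 0.877 (17 of the 18; none from DESeq2 with independent filtering). It was -0.53 with ribosomal RNA share as a covariate, -0.44 with the slow fibre score and -0.45 with a correction for exon length and GC content. By summed exon length, the median log2 fold change was 0.09 over the 3710 tested genes with the shortest exons (under 2824 bases), -0.0032 over those of 2824 to 4473 bases, -0.011 over those of 4474 to 6861 bases, and -0.05 over the 3707 with the longest, which include *Polg* and *Ssbp1*.

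**Figure D2:**
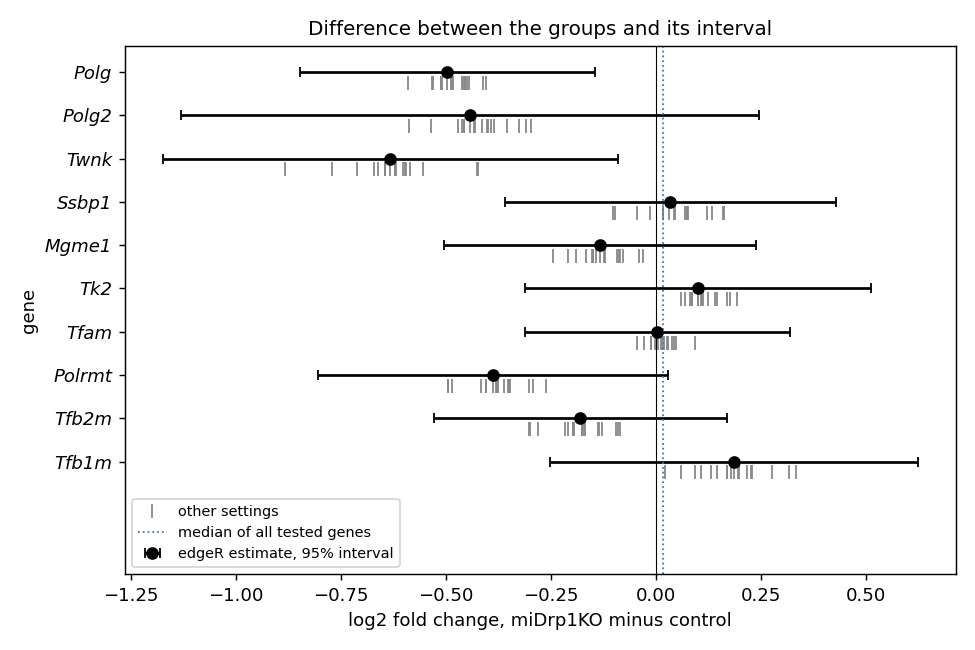
Log2 fold change (miDrp1KO minus control) of each of the 10 genes by edgeR, with its 95% interval (point and bar) and the estimates under the other settings (grey ticks); the dotted line is the median of all genes tested, 0.02. The intervals of *Polg* and *Twnk* lie below 0 and the other 8 include it, and no adjusted p was under 0.05.

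Reads of some members may be shared with other genes, since the sources used here do not state how strand, overlapping genes or reads with several matches were counted. *Tfb2m* has an unprocessed pseudogene on chromosome 12, *Gm1818*, that is 99.3% identical over 1187 bases and is counted on its own at 25.9 to 36.3 CPM. *Ssbp1* has a processed pseudogene, *Gm12115*, 97.8% identical over 447 bases and at 9.69 to 19.6 CPM. With the counts of each copy added to its gene, the log2 fold changes were -0.22 for *Tfb2m* (edgeR adjusted p = 0.624) and 0.02 for *Ssbp1* (adjusted p = 0.984). On the opposite strand, 921 exonic bases of *Polg* (8.57%) are shared with *Fanci*, which was at 0.907 to 1.87 CPM, and 507 of *Twnk* (12.6%) with *Mrpl43*, at 20.4 to 35.4 CPM and a log2 fold change of 0.05. *Polg2*, *Tfb1m* and *Mgme1* share 132, 142 and 206 exonic bases with *Milr1*, *Tiam2* and *Snx5*.

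Levels of different genes can be compared only per length, and were divided here by the kilobases of all annotated exons of each gene. Over the 6 libraries *Tfb2m* had the highest level (10.7 ± 1.28 CPM per kilobase, SD), followed by *Tfam* (9.66 ± 0.319), and their ranges overlapped. *Tfam* was above the third gene, *Mgme1* (4.39 ± 0.492), in all 6 libraries. *Mgme1*, *Twnk* (4.26 ± 1.42), *Ssbp1* (3.35 ± 0.479) and *Tfb1m* (3.01 ± 0.515) followed, and each of these overlapped the next in the order.

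*Polrmt* (2.19 ± 0.426 CPM per kilobase), which overlapped *Tfb1m*, *Tk2* (1.94 ± 0.183) and *Polg* (1.74 ± 0.351) came next, again with overlapping ranges. *Polg2* (0.422 ± 0.105) was below *Polg* in all 6 libraries. The level of *Tfb2m* carries the uncertainty of its pseudogene, and dividing by the longest transcript instead moved *Ssbp1*, whose exons sum to 8360 bases against 4398 in that transcript, from the fifth place to the third and put *Tk2* before *Polrmt*. The pooled order also hides differences between the groups' means: *Twnk* was above *Mgme1* in control (5.18 against 4.60 CPM per kilobase) and below both *Mgme1* (4.19) and *Ssbp1* (3.39) in miDrp1KO (3.35), and *Tk2* (2.01) was above *Polrmt* (1.90) in miDrp1KO only, with overlapping ranges of libraries in each of these cases. *Polg* was above *Tk2* in control (2.04 against 1.88 CPM per kilobase) and below it in miDrp1KO (1.44 against 2.01). Their libraries overlapped in control but not in miDrp1KO (1.29 to 1.67 against 1.85 to 2.18).

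**Figure D3:**
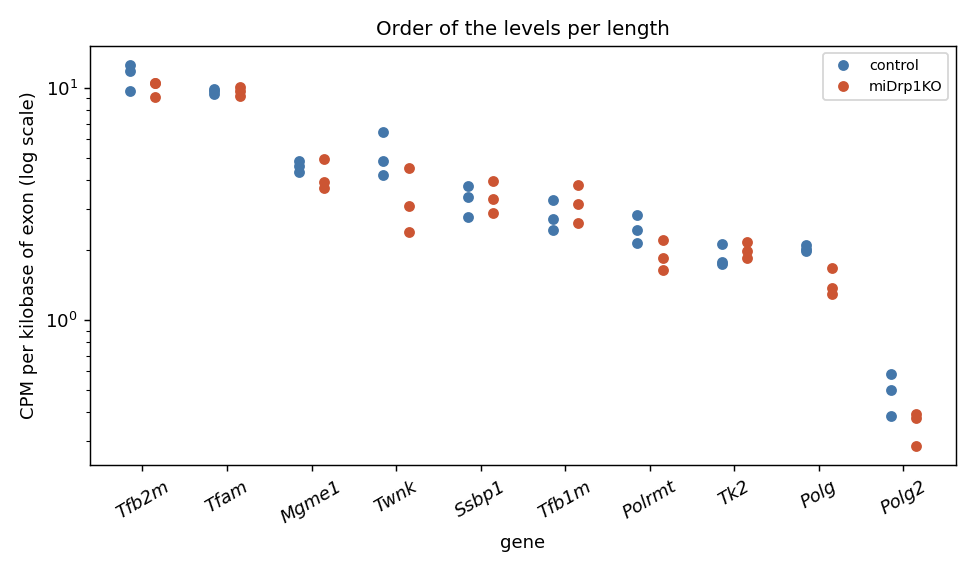
CPM per kilobase of annotated exon (log axis) of the 10 genes, ordered by their mean over the 6 libraries; each point is 1 library, control in blue and miDrp1KO in red. *Tfb2m* and *Tfam* lie above the other genes in every library and *Polg2* below them.

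Ratios between members within a library do not depend on how libraries are scaled. The ratio of *Polg* to *Polg2* per length was 4.20, 3.39 and 5.24 in control B, C, D and at 4.41, 3.48 and 4.51 in miDrp1KO A, E and F, so the catalytic and accessory subunits kept overlapping ratios. The ratio of *Tfam* to *Polrmt* was 3.42, 4.59 and 3.82 in control and 4.56, 5.60 and 5.25 in miDrp1KO. Here miDrp1KO E and F were above all control libraries and A was just below control C.

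The ratio of *Ssbp1* to *Twnk* was 0.523, 0.653 and 0.781 in control and 0.730, 1.28 and 1.20 in miDrp1KO, with A inside the control range. *Mgme1* to *Polg* was 2.29, 2.32 and 2.16 in control and 2.21, 2.88 and 3.82 in miDrp1KO, and *Twnk* to *Polg*, *Tfb2m* to *Tfb1m* and *Tfb2m* to *Polrmt* overlapped as well. In all 7 ratios taken here the groups overlapped, but this does not hold for every pair of members. *Tfam* was at 9.38 to 9.85 CPM per kilobase in control and 9.20 to 10.1 in miDrp1KO. *Polg* was at 1.99 to 2.10 and 1.29 to 1.67, so *Tfam* to *Polg* was higher in every miDrp1KO library. That pair was named after its values were seen.

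Other genes of the pathway were taken from written lists. Of 17 further genes of mtDNA replication and repair, 2 had an unadjusted edgeR p under 0.05 (10.9% of all genes did), both higher in miDrp1KO. *Polb*, a repair polymerase also found in mitochondria, was at 82.2, 97.5 and 80.2 CPM in control and 102, 132 and 132 CPM in miDrp1KO A, E and F (log2 fold change 0.49 ± 0.18 SE, edgeR adjusted p = 0.392). *Endog*, a mitochondrial endonuclease, was at 7.39, 6.19 and 7.63 CPM in control and 7.78, 9.71 and 13.8 CPM in miDrp1KO (log2 fold change 0.55, adjusted p = 0.422, and 0.32 without miDrp1KO F). *Top1mt*, the mtDNA topoisomerase, was at 20.7, 14.3 and 19.6 against 16.6, 10.6 and 14.0 CPM, with overlapping groups (-0.41, adjusted p = 0.507, and -0.26 without miDrp1KO E). Neither edgeR (0.0121% of all genes) nor DESeq2 with independent filtering (2.55%) called a gene of this list, of which 2 had an unadjusted p under 0.05 by DESeq2, against 7.33% of all genes.

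Of 9 further genes of mitochondrial transcription, 3 had an unadjusted p under 0.05 by edgeR, against 10.9% of all genes, and all 3 were higher in miDrp1KO. *Tefm*, the elongation factor of the mitochondrial polymerase, was at 12.0, 10.3 and 10.6 CPM in control B, C, D and at 13.9, 16.2 and 16.3 CPM in miDrp1KO A, E and F. Its groups did not overlap, in the direction opposite to *Polg* (log2 fold change 0.49 ± 0.16 SE, interval 0.14 to 0.85, edgeR adjusted p = 0.382). *Mterf2*, of the termination factor family, was at 19.2 to 21.6 CPM in control and 22.4 to 34.1 CPM in miDrp1KO (0.43, adjusted p = 0.422). *Mrpl12*, a ribosomal protein that also binds the polymerase, was at 53.0, 36.4 and 42.0 against 46.1, 61.3 and 89.9 CPM, with overlap (0.59, adjusted p = 0.433). Under the slow fibre covariate *Mterf2* was at 0.30, *Mrpl12* at 0.31 and *Endog* at 0.36, and none of the 3 kept an unadjusted p under 0.05. The same held with the length and GC correction for *Tefm* (0.33), *Mterf2* (0.26) and *Endog* (0.39). Among other fits, *Mrpl12* did not keep it without miDrp1KO F (0.32), nor *Mterf2* without miDrp1KO E (0.25). Of the 18 other settings, the unadjusted p was under 0.05 in 17 for *Tefm*, 12 for *Mrpl12*, 12 for *Endog* and 10 for *Mterf2*.

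In the nucleotide supply list, 1 of 22 genes had an unadjusted p under 0.05, a share below the 10.9% of all genes. That gene, *Suclg2*, a subunit of the succinyl-CoA ligase that is coupled to nucleoside diphosphate kinase, was at 45.3, 33.6 and 40.3 CPM in control and 32.0, 28.3 and 31.9 CPM in miDrp1KO (log2 fold change -0.37, edgeR adjusted p = 0.441). Of the 18 other settings, its unadjusted p was under 0.05 in only 8, and its estimate was -0.25 without control B. *Dguok*, the purine counterpart of *Tk2*, *Rrm2b*, a subunit of ribonucleotide reductase that serves non-dividing cells, and *Mpv17*, a mitochondrial inner membrane protein, had log2 fold changes of -0.08, 0.02 and -0.08, with intervals from -0.57 to 0.40, -0.31 to 0.36 and -0.41 to 0.25, and *Mpv17* was at -0.03 without miDrp1KO A.

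Among 11 other nucleoid genes, 10 had estimates below 0, where 52.0% of all genes were above 0, and 2 had an unadjusted p under 0.05, both lower, against 6.22% of all genes. *Lonp1*, the matrix protease that degrades TFAM among other proteins, was at 83.1, 59.2 and 75.9 CPM in control B, C, D and at 49.7, 41.0 and 41.0 CPM in miDrp1KO A, E and F, so every miDrp1KO library was below every control library (log2 fold change -0.73 ± 0.18 SE, edgeR adjusted p = 0.362). DESeq2 gave it an adjusted p of 0.0312 with independent filtering and 0.121 without. *Hspd1*, the matrix chaperonin, was at 137 to 167 CPM in control and 102 to 118 CPM in miDrp1KO (-0.51, edgeR adjusted p = 0.382).

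Of 17 tested genes that process mitochondrial RNA, 3 were lower in all miDrp1KO than in all control libraries, against 10.3% of all genes tested: *Mtpap*, the mitochondrial poly(A) polymerase, named after its values were seen, *Grsf1*, an RNA granule protein, and *Elac2*, which cuts the 3′ ends of tRNAs. *Grsf1* and *Elac2* had an unadjusted p under 0.05 (76.4 to 103 against 58.4 to 69.2 CPM, and 15.2 to 16.6 against 9.61 to 13.9 CPM; edgeR adjusted p = 0.382 and 0.393). *Slirp*, which stabilises mitochondrial mRNA, was at 9.75, 13.0 and 10.2 against 12.0, 15.5 and 18.6 CPM (0.49, adjusted p = 0.424), and its unadjusted p was not under 0.05 with the slow fibre covariate (0.43) or the length and GC correction (0.39). Of 12 regulators of mitochondrial biogenesis, 0 had an unadjusted p under 0.05 by edgeR (10.9% of all genes) or DESeq2 (7.33%), a count near that background for a list of this size. Neither edgeR (0.0121% of all genes) nor DESeq2 with independent filtering (2.55%) called one. The coactivator *Ppargc1a* was at 74.8, 38.9 and 59.2 CPM in control and 57.0, 96.8 and 51.5 CPM in miDrp1KO (0.25, interval -0.43 to 0.92).

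**Figure D4:**
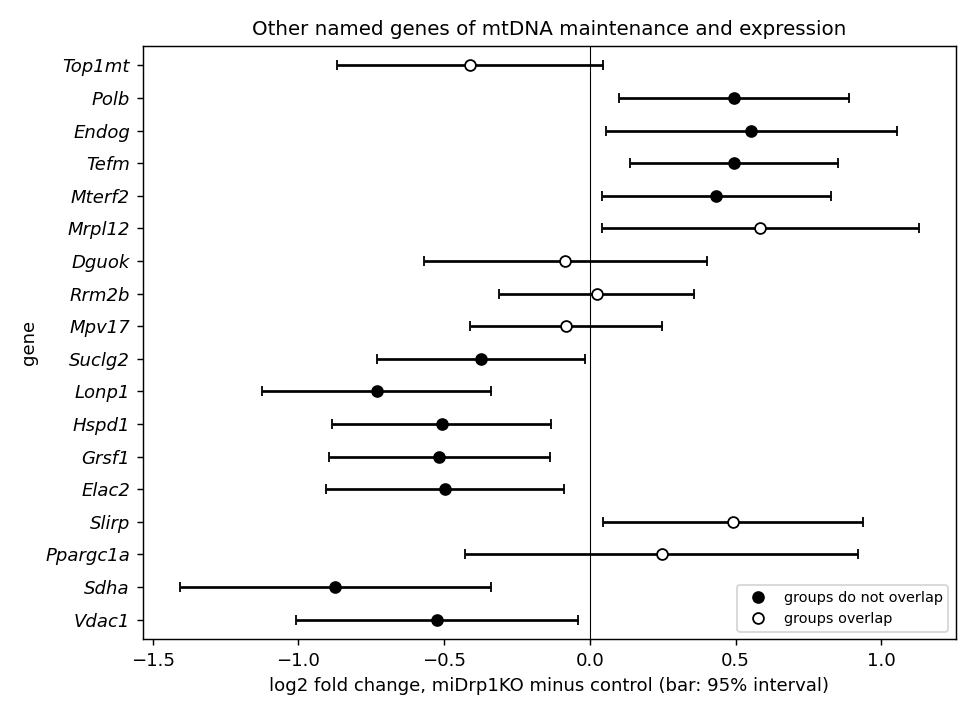
Log2 fold change (miDrp1KO minus control) by edgeR with its 95% interval for 18 named genes outside the group of 10; filled points mark genes whose groups do not overlap. *Tefm*, *Polb*, *Endog* and *Mterf2* lie above 0 and *Lonp1*, *Hspd1*, *Grsf1*, *Elac2*, *Suclg2*, *Sdha* and *Vdac1* below 0 with groups apart, and no adjusted p was under 0.05 by edgeR.

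Nuclear genes that mark the amount of mitochondria were described beside the members. Of 18 such genes, 13 had estimates below 0 and 5 did not overlap, all lower in miDrp1KO, where 10.3% of all genes tested were, with a median log2 fold change of -0.29. *Hspd1* is in this list and among the nucleoid genes. The steepest by its p was *Sdha*, a subunit of complex II, at 732, 397 and 607 CPM in control B, C, D and at 320, 337 and 290 CPM in miDrp1KO A, E and F (-0.87 ± 0.24 SE, edgeR adjusted p = 0.362; DESeq2 adjusted p = 0.0199 with independent filtering and 0.0801 without). *Vdac1*, the outer membrane channel, was at 668 CPM or more in control and at 568 to 622 CPM in miDrp1KO (-0.52, edgeR adjusted p = 0.432). Its unadjusted p was under 0.05 in 11 of the 18 other settings, and its estimate was -0.37 without control B. The summed level of the list was 7124 to 11164 CPM in control and 6763 to 8533 CPM in miDrp1KO, and its part in the values of *Polg* and *Twnk* was not tested.

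Markers of muscle fibres and of other cells were summed per library, and edgeR called 0 of their genes (0.0121% of all genes), while DESeq2 with independent filtering called 2 muscle fibre and 2 adipocyte genes (2.55% of all genes). Estimates were above 0 in 52.0% of all genes. All 10 genes of the muscle fibre list had estimates below 0. Most of them are fast fibre genes (*Mylpf*, *Tnnt3*, *Tnni2*, *Myh4*, *Myh1*, *Myh2* and *Actn3*), so the list does not stand for all fibre types. Its summed levels were 244882 to 300165 CPM in control and 110148 to 225561 CPM in miDrp1KO, *Ttn* most abundant. All 5 adipocyte markers were below 0 (summed 170 to 362 against 65.3 to 167 CPM, *Cfd* most abundant), and the 3 tested proliferation markers were above 0 (2.48 to 5.11 against 6.38 to 9.14 CPM, *Mki67* most abundant). All 8 slow fibre genes (median log2 fold change 1.46), all 5 fibroblast genes (0.26) and all 5 Schwann cell genes (0.44) had estimates above 0, but their sums overlapped between the groups, as did those of the endothelial, macrophage and blood lists. The sums of satellite cell genes ran from 9.98 to 11.5 CPM in control and from 11.9 to 14.8 CPM in miDrp1KO, and the part of any of these in the members' values was not tested.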

How the data were processed

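Quadriceps RNA from 6 mice was sequenced after ribosomal RNA depletion (TruSeq Stranded Total RNA, RIN above 7.0, 2 pools). The authors checked reads with FastQC, aligned them to GRCm38 and counted them with Rsubread 2.4.2, and the deposited values are raw counts per gene, not normalized. Per the submitters' processing notes, DESeq2 1.30.0 was used for their own comparison. The strand setting is not given in the sources used here, nor is the pool of each library.

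Groups were taken from the genotype labels and the time from the study. The main test was edgeR 4.0.16 in R 4.3.3 (filterByExpr, TMM, robust quasi-likelihood fit), with p-values adjusted by Benjamini-Hochberg over 16483 genes and a threshold of 0.05. SE and 95% intervals came from the quasi-likelihood F. Exact permutation tests were two-sided on log2 CPM (prior count 2). Alternatives were DESeq2 1.42.0, limma 3.58.1 voom, RLE and upper quartile scaling, no filter, at least 10 counts in every library, leaving out 35 ribosomal RNA genes and *Lars2*, 2 covariates, a length and GC correction (splines, 5 df, for the 90.0% of tested genes with a length) and 6 fits leaving out 1 library. Adding pseudogene counts and DESeq2 without independent filtering were chosen after seeing the data. The fits were tested on simulated data. The members and gene lists were chosen with earlier results of these data known.

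Named genes were the members, *Dnm1l*, up to 3 genes per list with the lowest unadjusted p under 0.05, and *Ppargc1a*, *Tefm*, *Top1mt*, *Lonp1*, *Dguok*, *Rrm2b* and *Mpv17*. Lists of other cell types are given by counts and summed level. Gene positions and exon lengths came from GENCODE M21 (GRCm38), near-identical copies (at least 95% identity) from blastn, and promoters from RefSeq. Depth limits *Polg2* most, at 26 to 101 counts.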

Additional observations from a re-analysis of the deposited data

How the results depend on the processing

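No member was called in either direction by any of the 18 alternative fits at an adjusted p under 0.05, and an unadjusted p under 0.05 in its place gave 2 lower members and 0 higher ones. The number of members with an unadjusted p under 0.05 was 1 to 3 when 1 replicate was left out, in fits where the share of all genes ran from 5.36% (without control D) to 17.5% (without miDrp1KO A). The number whose groups do not overlap was 2 under DESeq2 with and without independent filtering (15.5% of all genes), 2 with the copies' counts added (18.0%) and 3 with the length and GC correction (19.9%). With 1 control replicate left out it was 1 without B (28.5%), 6 without C (30%) and 2 without D (23.1%). With 1 miDrp1KO replicate left out it was 3 without A (37.7%), 3 without E (24.7%) and 2 without F (25.8%). Members with an estimate above 0 numbered 2 with the length and GC correction and 2 to 4 when 1 replicate was left out. The median log2 fold change of the members was -0.065 with upper quartile scaling, -0.11 where each library had to hold 10 counts, -0.24 with the slow fibre covariate, -0.23 with the length and GC correction and -0.23 to -0.062 when 1 replicate was left out. Upper quartile scaling moved all genes alike: their median went from 0.017 to 0.106, and the members' median minus that of all genes was -0.17 in both fits. For the others the cause was not tested.

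*Tfam* changed sign under DESeq2 (-0.012, with and without independent filtering), with the ribosomal RNA covariate (-0.029) and with the length and GC correction (-0.044), and ran from -0.0032 to 0.039 when 1 replicate was left out. *Ssbp1* did so with the slow fibre covariate (-0.015) and the length and GC correction (-0.044), and ran from -0.10 to 0.16 when 1 replicate was left out. Outside the members, leaving out 1 replicate gave -0.093 to 0.50 for *Ppargc1a*, -0.23 to 0.029 for *Dguok* and -0.014 to 0.079 for *Rrm2b*. *Dguok* was at 0.0092 and *Mpv17* at 0.0099 with upper quartile scaling, which is below the shift of all genes in that fit, and *Rrm2b* at -0.068 with the length and GC correction. DESeq2 with independent filtering gave *Dnm1l* (-0.93), *Lonp1* (-0.75) and *Sdha* (-0.89) an adjusted p under 0.05, and without it only *Dnm1l* of these 3.

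No paired analysis was possible because the labels name the libraries only as replicates and give no pairing of control and miDrp1KO mice. With 3 libraries per group, intervals span folds of 0.806 to 1.25 for *Tfam* and 0.443 to 0.940 for *Twnk*, and depth limits *Polg2* most.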
